A study of Mus musculus with 2 samples.

Results

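Expression of 5 genes that carry calcium and phosphate hormone signals was described in nuclei of the mouse thick ascending limb (TAL), the nephron segment that takes up salt through the Na-K-2Cl cotransporter NKCC2 (gene Slc12a1). They are Casr, Pth1r, Vdr, Kl and Fgfr1, 5 of the 32227 genes in the count matrices. They were chosen by name, but with earlier results of these data known. The study reports Casr, Pth1r and Vdr as higher in its β cells. Counts of the 5 genes beside shares of all genes are thus descriptions only. The experiment comprised 2 single-nucleus RNA libraries, 1 of dissected cortex and 1 of dissected medulla, from male B6 (C57BL/6) mice labelled WT with an age label of 12 without a unit. These NKCC2-Cre-INTACT mice carry a tamoxifen-inducible Cre driven by the NKCC2 gene and a Cre-dependent Sun1-sfGFP nuclear tag, and all received tamoxifen, so both libraries share these alleles and this treatment. Green nuclei were sorted by fluorescence-activated nuclei sorting. Cortex was a superficial strip of the kidney and medulla the remaining tissue, so deep cortex lies in the medulla portion. With 1 library per region, the difference between regions and the difference between libraries cannot be told apart, no test across animals was possible, and no p-value is given.

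Casr encodes the calcium-sensing receptor, a G protein-coupled receptor on the basolateral membrane of TAL cells that lowers the paracellular uptake of calcium and magnesium when plasma calcium is high. Pth1r encodes the receptor for parathyroid hormone and the related peptide PTHrP, which acts through cyclic AMP. Vdr encodes the nuclear receptor for active vitamin D, which binds DNA together with a retinoid X receptor. Kl encodes α-Klotho, a membrane protein that joins a fibroblast growth factor receptor to form the receptor for the phosphate-lowering hormone FGF23, and Fgfr1 encodes the receptor best known as its partner. The kidney distal tubule is a known site of Klotho, and the proximal tubule is a known target of parathyroid hormone and FGF23.

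On GRCm39, Casr (ENSMUSG00000051980) spans chr16:36310949-36382503 on the minus strand, Pth1r (ENSMUSG00000032492) chr9:110550767-110576259 on the minus strand, and Vdr (ENSMUSG00000022479) chr15:97752306-97808511 on the minus strand. Kl (ENSMUSG00000058488) spans chr5:150876072-150917284 and Fgfr1 (ENSMUSG00000031565) chr8:26003670-26066824, both on the plus strand. The 250 bases before the start site of the main transcript are shown for Casr, Pth1r and Vdr, because these genes had higher levels in the β class than in the α class of both libraries. They were read from the genome in the direction of transcription, at chr16:36381969-36382218, chr9:110571788-110572037 and chr15:97806198-97806447. Capitals mark matches, on either strand, to 4 short vitamin D receptor motifs of 6 letters (the letters AGGTCA and the variants that read GGGTCA or that read GGTTCA or else AGTTCA).
Casr: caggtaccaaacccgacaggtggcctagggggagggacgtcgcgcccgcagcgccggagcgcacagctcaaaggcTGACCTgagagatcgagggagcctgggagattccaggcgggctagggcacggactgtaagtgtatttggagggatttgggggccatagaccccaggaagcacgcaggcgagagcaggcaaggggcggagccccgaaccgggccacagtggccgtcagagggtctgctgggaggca
Pth1r: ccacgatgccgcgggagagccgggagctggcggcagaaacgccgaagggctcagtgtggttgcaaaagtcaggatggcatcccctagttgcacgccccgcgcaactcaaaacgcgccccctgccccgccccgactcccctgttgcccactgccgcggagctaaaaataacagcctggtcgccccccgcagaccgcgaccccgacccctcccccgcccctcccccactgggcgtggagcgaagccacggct
Vdr: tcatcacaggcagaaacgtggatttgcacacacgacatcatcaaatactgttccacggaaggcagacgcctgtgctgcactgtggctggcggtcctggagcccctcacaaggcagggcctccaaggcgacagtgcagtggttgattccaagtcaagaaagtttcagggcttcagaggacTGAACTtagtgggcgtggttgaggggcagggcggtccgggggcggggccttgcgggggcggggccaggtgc
The Casr window held AGGTCA on the opposite strand, 175 bases before the start site, and a match to GGGTCA at base 7 of the transcript, beyond the stretch printed. The Vdr window held AGTTCA, also on the opposite strand, 71 bases before the start site. The Kl window held GGGTCA 93 bases before it, and the Pth1r and Fgfr1 windows held none of these letters. Of 21770 protein-coding promoter windows of 300 bases, 42.5% held at least 1 of the 4 motifs, and 3 of the 5 windows did. A match describes letters and is not a binding site. A pair of motifs on 1 strand with 3 bases between them was in 0.0505% of windows and in none of the 5.

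The cortex library held 5442 barcodes with 16457300 counts (median 2427 per barcode) and the medulla library 8121 barcodes with 20947211 counts (median 2430), and 0 barcodes were shared. Classes were set by counts of marker genes that exclude the 5 genes. Barcodes with at least 5 counts of Slc12a3, the cotransporter of the distal convoluted tubule (DCT), were called DCT and taken out first, and those with at least 10 Slc12a1 counts were called TAL. TAL nuclei with at least 3 counts of Nos1 and Pappa2 together were called macula densa (MD), the salt sensor of the TAL. The rest were called β with at least 2 Tmem52b counts, γ with at least 2 counts of Tmem207 and Gpc5 together, and otherwise α. This gave 2813 α, 1461 β, 248 γ, 649 MD and 92 DCT nuclei in cortex, and 3775, 566, 3542, 78 and 15 in medulla. Level means CPM, the summed counts of a gene scaled to 1000000 counts of the class, with a 95% Poisson interval. All intervals cover counting error only.

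Markers outside the rule were checked against the class names. Claudin gene Cldn10 was at 242 CPM in medullary α, 56.8 in β and 211 in γ, Cldn16 at 60.3, 254 and 55.0, and the potassium channel gene Kcnj10 at 13.2, 170 and 109. In cortex Cldn16 and Kcnj10 were higher in β (195 and 142 CPM) than in α (101 and 17.7). Ptgs2 was at 87.7 CPM in cortical MD nuclei and at 127 in medullary ones, and at no more than 4.17 CPM in any other TAL class. The cortical nuclei under the γ rule had a Cldn16 level of 153 CPM beside a Kcnj10 level of 144, unlike medullary γ, and are described by rule only. Tmem52b, which sets β, was also at 617 CPM in cortical DCT nuclei and 1085 in medullary ones, against 38.1 and 9.81 in α. TAL nuclei with DCT transcripts but fewer than 5 Slc12a3 counts can thus fall under the β rule. The part of such nuclei in the β levels was not tested. In cortex, 391 α nuclei (13.9%), 281 β nuclei (19.2%) and 47 MD nuclei (7.24%) carried more than 2 counts over 7 proximal tubule markers, against 71 α nuclei (1.88%) in medulla. The 331 cortical α nuclei with at least 10 such counts had a median depth of 5700 counts. Doublet calling marked 17.7% of the cortical TAL nuclei with more than 2 of these counts and 4.86% of the others. Proximal tubule barcodes held Pth1r, Vdr, Kl and Fgfr1 at levels near those of the TAL in cortex and above them in medulla. Values of nuclei with at most 2 proximal tubule marker counts, called tubule-low, are thus given beside the cortical levels and the ratios.

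Casr had its highest level in β nuclei of both libraries. In cortex it was at 1352 CPM in β (1319 to 1384) and 837 in α (817 to 857), 1149 under the γ rule (1077 to 1225), 477 in MD (444 to 512) and 341 in DCT (291 to 396). No neighbours in this order overlapped. In medulla it was at 1383 CPM in β (1328 to 1440), 557 in α (542 to 572), 530 in MD (425 to 653), 453 in γ (439 to 467) and 91.9 in DCT (29.9 to 215, 5 counts in 15 nuclei). Here MD overlapped both α and γ. Tubule-low Casr levels in cortex were 1650 CPM in β, 1452 under the γ rule, 962 in α, 508 in MD (469 to 548) and 498 in DCT (414 to 595), with overlap of the last pair. In cortical DCT nuclei Casr followed Slc12a1, with 466 CPM in the 47 nuclei that also had at least 10 Slc12a1 counts (median depth 4525) and 70.3 CPM in the other 45 (35.1 to 126, median depth 2523). The part of TAL transcripts in this value was not tested.

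In single nuclei Casr was found most often in the β classes. At least 1 count was found in 94.1% of cortical β nuclei (Clopper-Pearson 95% interval 92.8 to 95.3) and 76.4% of α nuclei (74.8 to 78.0), and in 92.2% of medullary β (89.7 to 94.3), 53.0% of α (51.4 to 54.6) and 49.3% of γ nuclei (47.7 to 51.0). The share was 50.2% in cortical MD nuclei and 60.3% in medullary ones (48.5 to 71.2), so medullary MD lay above α by share and below it by CPM, with overlapping intervals in both. Proximal tubule barcodes with at most 2 Slc12a1 counts served as background, with Casr counts in 3.66% of 82 in cortex and 4.12% of 97 in medulla at median depths of 3430 and 4590 counts, deeper than the TAL classes. After thinning every nucleus to 1000 counts, the Casr shares were 70.1% in cortical β, 52.1% in cortical α, 70.9% in medullary β, 46.2% in medullary MD, 34.5% in medullary α and 29.9% in medullary γ. Cortical MD nuclei also had 34.5%. At least 5 Casr counts were found in 44.8% of cortical β nuclei and 16.0% of cortical α nuclei, and in 40.1%, 7.55% and 5.34% of medullary β, α and γ nuclei. Casr was thus detected in nearly every β nucleus, and in the medulla it was undetected at this depth in 47.0% of α and 50.7% of γ nuclei.

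Pth1r separated the classes more widely than Casr in the medulla. In cortex it was at 583 CPM in β (562 to 604), 455 under the γ rule (410 to 503), 298 in α (286 to 310), 243 in DCT (202 to 291) and 198 in MD (177 to 221), and DCT overlapped both α and MD. In medulla it was at 424 CPM in β (394 to 456), 239 in DCT (127 to 409, 13 counts), 139 in MD (87.8 to 208), 80.5 in α (74.9 to 86.5) and 42.0 in γ (37.9 to 46.4). The medullary DCT interval overlapped those of β and MD, and all other neighbours stood apart. Pth1r counts were found in 78.2% of cortical β and 47.3% of cortical α nuclei, and in 59.2% of medullary β, 14.3% of medullary α and 7.26% of medullary γ nuclei. At 1000 counts per nucleus these shares were 44.3%, 23.4%, 32.9%, 6.47% and 3.00%. Proximal tubule barcodes had Pth1r levels of 356 CPM in cortex and 229 in medulla, so they are no background for this gene either. In tubule-low nuclei the cortical Pth1r levels were 647 CPM in β, 473 under the γ rule, 278 in α, 267 in DCT and 175 in MD. Pth1r shares 5331 bases with Myl3 on the opposite strand. Myl3 stood at 29.9 CPM in cortical β and 20.5 in cortical α, and at 24.9, 7.04 and 2.98 CPM in medullary β, α and γ, and whether strand was used in counting is not given in the sources used here.

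Vdr had its highest level in DCT nuclei and, among TAL classes, in β. In cortex it was at 426 CPM in DCT (370 to 488), 260 in β (246 to 275), 232 in MD (209 to 257), 213 under the γ rule (183 to 247) and 183 in α (174 to 193). Neighbours overlapped from β down to α, while β and α did not. Tubule-low Vdr levels in cortex were 604 CPM in DCT (511 to 709), 256 in β, 238 in MD, 220 under the γ rule and 170 in α. In medulla Vdr was at 827 CPM in DCT (604 to 1107, 45 counts in 15 nuclei), 220 in β (199 to 243), 157 in MD (102 to 230), 82.5 in α (76.8 to 88.6) and 51.35 in γ (46.8 to 56.2), with an overlap of β and MD only. Vdr counts were found in 49.9% of cortical β nuclei, 39.6% of cortical MD and 35.6% of cortical α, and in 42.6%, 16.0% and 10.3% of medullary β, α and γ nuclei. At 1000 counts the MD and β shares in cortex were 20.5% and 20.4%, and that of α was 15.4%.

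Kl had its highest level in DCT nuclei, and its β and α levels in cortex did not differ beyond counting error. In cortex it was at 694 CPM in DCT (622 to 771), 345 in β (329 to 361), 341 in α (329 to 354), 279 under the γ rule (244 to 317) and 261 in MD (237 to 287). The intervals of β and α overlapped, as did those of the γ rule and MD. Tubule-low Kl levels in cortex were 810 CPM in DCT (702 to 931), 330 in α, 328 in β, 276 under the γ rule and 223 in MD. In medulla Kl was at 1140 CPM in DCT (874 to 1461, 62 counts in 15 nuclei), 262 in β (238 to 287), 212 in α (203 to 222), 211 in MD (147 to 293) and 90.2 in γ (84.1 to 96.6), where MD overlapped β and α. Kl counts were found in 50.5% of cortical β and 49.1% of cortical α nuclei, and in 42.9%, 30.5% and 15.4% of medullary β, α and γ nuclei. The cortical DCT nuclei with fewer than 10 Slc12a1 counts had a Kl level of 965 CPM (817 to 1132) and those with more a level of 567 (490 to 654).

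Fgfr1 differed little among the TAL classes of the cortex. In cortex it was at 136 CPM in DCT (105 to 173), 96.3 in MD (81.8 to 113), 89.5 in α (83.1 to 96.4), 84.6 in β (76.8 to 93.1) and 66.7 under the γ rule (50.2 to 86.8), and every pair of neighbours overlapped. Tubule-low Fgfr1 levels in cortex were 186 CPM in DCT (136 to 249), 100.4 in MD (83.8 to 119), 91.3 in α, 82.8 in β and 67.5 under the γ rule, and DCT then stood clear of MD. In medulla it was at 151 CPM in MD (97.5 to 222, 25 counts in 78 nuclei), 73.5 in DCT (20.04 to 188, 4 counts), 60.2 in β (49.2 to 73.0), 56.5 in α (51.8 to 61.5) and 34.0 in γ (30.3 to 38.0). Only γ stood clear of its neighbour in this order. MD overlapped DCT, which had 4 counts, but stood clear of β, α and γ. Fgfr1 counts were found in 23.0% of cortical β and 20.7% of cortical α nuclei, and in 16.3%, 12.0% and 7.57% of medullary β, α and γ nuclei. At 1000 counts the Fgfr1 shares in TAL classes lay between 3.05% and 11.5%. Barcodes with 5 to 100 counts that were not called as nuclei held Fgfr1 at 88.0 CPM in cortex and 46.8 in medulla, levels close to those of the classes. This limit is not particular to Fgfr1. The other genes were found in these barcodes too, at levels given among the results flagged for a closer look.

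**Figure D1:**
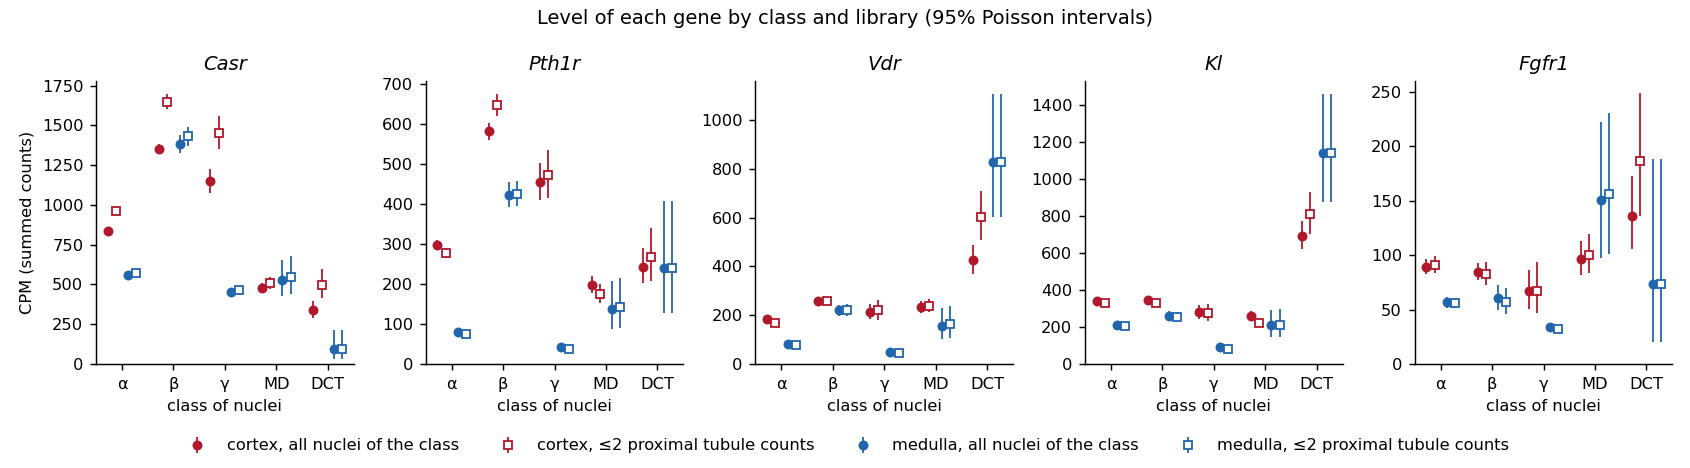
CPM of the 5 genes (vertical axis, from 0, a separate scale per gene) by class of nuclei in cortex (red) and medulla (blue), with 95% Poisson intervals; filled circles are all nuclei of a class and open squares those with at most 2 proximal tubule marker counts. Casr and Pth1r peak in β nuclei, and Vdr and Kl in DCT nuclei (827 and 1140 CPM in the medulla). The Fgfr1 intervals of neighbouring cortical classes overlap among all nuclei, while among the open squares DCT stands clear of MD.

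The first comparison was of β with α nuclei within a library, which leaves aside differences between libraries but not those of position. The study places β cells in cortex and the outer stripe of the outer medulla, and α cells in all zones. It places γ cells as likely restricted to the inner stripe. Ratios between classes of the medulla library thus mix class with position, and the part of each was not tested. Casr was 1.62 times higher in β in cortex (conditional binomial 95% interval 1.56 to 1.67) and 2.49 times higher in medulla (2.37 to 2.61). Pth1r was 1.95 times higher in cortex (1.85 to 2.06) and 5.27 times higher in medulla (4.75 to 5.84), and Vdr 1.42 times (1.32 to 1.53) and 2.67 times (2.35 to 3.02). Kl did not differ beyond counting error in cortex (ratio 1.01, 0.9502 to 1.07) and was 1.23 times higher in medulla (1.11 to 1.37). Fgfr1 had ratios of 0.945 (0.836 to 1.07) and 1.07 (0.855 to 1.32). At least 1.5 times higher were 2 of the 5 genes in cortex, where 5.1% of all 12157 genes with at least 50 counts were, and 3 of 5 in medulla, where 6.82% of 11119 were. None of the 5 was 1.5 times lower, against 4.33% and 8.1% of all genes.

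Among tubule-low nuclei the cortical ratio of β to α was 1.71 for Casr, 2.33 for Pth1r and 1.51 for Vdr, which put 3 of 5 genes past 1.5 (6.07% of all genes). Those of Kl and Fgfr1 were 0.993 and 0.906. In medulla the tubule-low ratios were 2.50, 5.59, 2.81, 1.23 and 1.02 for Casr, Pth1r, Vdr, Kl and Fgfr1. In both libraries, and with or without nuclei that carry proximal tubule transcripts, Pth1r had the highest ratio of the 5 and Kl and Fgfr1 lay nearest to 1. Casr came second in cortex and Vdr in medulla, where the intervals of Vdr and Casr overlapped. This order depended on how classes were set. In cortex Casr lay above Pth1r with deposited clusters and with claudin and Kcnj10 classes. Among tubule-low nuclei of the claudin classes Pth1r was again above Casr. Pth1r was at 2.44 there, and Casr stayed within the counting interval of its reported ratio (1.56 to 1.67). In medulla Casr lay above Vdr with deposited clusters and with Tmem52b of at least 1. Over 12 alternatives 2 or 3 of 5 genes were past 1.5 in cortex and 3 or 4 in medulla. Apart from the tubule-low setting, shares of all genes were not computed for them.

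γ nuclei of the medulla lay below α nuclei. Kl was at 0.425 times its α level (0.391 to 0.461), Pth1r at 0.521 (0.460 to 0.590), Fgfr1 at 0.602 (0.521 to 0.694), Vdr at 0.622 (0.553 to 0.699) and Casr at 0.814 (0.781 to 0.848). Thus 4 of 5 were at least 1.5 times lower, against 5.26% of 12347 genes, and none was 1.5 times higher (2.54%). Among tubule-low nuclei the ratios were 0.388 for Kl, 0.488 for Pth1r, 0.573 for Fgfr1, 0.587 for Vdr and 0.813 for Casr, again 4 of 5 (5.69% of all genes). With claudin and Kcnj10 classes, the count was 2 of 5, among all nuclei and among tubule-low ones. The share of all genes was not computed for those classes. The direction for Casr depended on how the class was set. With γ taken as Cldn10 and Kcnj10 without Cldn16 the ratio was 0.954 (0.844 to 1.07), and 1.02 (0.902 to 1.16) among tubule-low nuclei. By the same claudin classes Vdr was at 0.972 (0.7004 to 1.32), Kl at 0.665 (0.520 to 0.839) and Fgfr1 at 0.761 (0.493 to 1.13), and by the deposited clusters Pth1r was at 0.218 (0.177 to 0.267). β and γ nuclei of the medulla both carried Kcnj10 but differed in every one of the 5 genes. β was higher than γ by 10.1 times for Pth1r (8.92 to 11.5), 4.29 times for Vdr (3.73 to 4.92), 3.05 times for Casr (2.90 to 3.21), 2.90 times for Kl (2.58 to 3.26) and 1.77 times for Fgfr1 (1.40 to 2.22). All 5 were past 1.5, as were 9.56% of all genes. The tubule-low ratios of β to γ were 11.5, 4.79, 3.08, 3.17 and 1.79 for Pth1r, Vdr, Casr, Kl and Fgfr1. By the deposited clusters the ratio was 29.6 for Pth1r (24.2 to 36.5) and 5.06 for Kl, and by claudin classes it was 2.57 for Vdr (1.88 to 3.57). The deposited clusters were named here by the same marker genes as the rule, so their names are not independent of it.

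MD nuclei were compared with α nuclei. In cortex Casr was at 0.570 times the α level (0.529 to 0.615), Pth1r at 0.665 (0.590 to 0.747) and Kl at 0.765 (0.689 to 0.848), while Vdr was 1.27 times higher (1.13 to 1.42). Fgfr1 did not differ beyond counting error (1.08, 0.899 to 1.28). At least 1.5 times lower were 2 of 5, against 13% of 11441 genes, and none was 1.5 times higher (12.3%). Pth1r lay close to the threshold, and over 12 alternatives the count of lower genes ran from 0 to 3. Apart from the tubule-low setting, shares of all genes were not computed for these alternatives. Tubule-low ratios in cortex were 0.528 for Casr, 0.630 for Pth1r, 0.676 for Kl, 1.40 for Vdr and 1.1 for Fgfr1. In medulla, with 78 MD nuclei, Vdr was 1.90 times higher (1.23 to 2.80), Fgfr1 2.66 times (1.71 to 3.98) and Pth1r 1.72 times (1.08 to 2.60), 3 of 5 against 23.6% of all genes, and none was 1.5 times lower (28.8%). Casr (0.952, 0.762 to 1.18) and Kl (0.993, 0.689 to 1.39) did not differ beyond counting error there. Median-of-ratios scaling put medullary MD at 1.192 relative to α. It used the 573 genes with at least 50 counts in every medullary class, against 3514 in cortex, where MD was at 0.9885. MD was the smallest medullary class, so this filter favours genes high in MD, and its part in the factor was not tested. Under this scaling the ratio of Pth1r was 1.44 (0.909 to 2.18), no longer past 1.5, and that of Casr 0.799 (0.639 to 0.986). Vdr was at 1.59 (1.03 to 2.35), Fgfr1 at 2.24 (1.43 to 3.34) and Kl at 0.833 (0.578 to 1.16), so 2 of 5 were past 1.5. The share of all genes under this scaling was not computed. Tubule-low ratios in medulla were 1.89 for Pth1r, 2.06 for Vdr, 2.79 for Fgfr1, 0.959 for Casr and 1.03 for Kl. Vdr was the gene of the 5 that was higher in MD than in α in both libraries with an interval above 1. Cortical β nuclei had 2.83 times the Casr level of MD nuclei (2.63 to 3.06), whereas the ratio of β to MD for Vdr was 1.12 (0.998 to 1.26).

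**Figure D2:**
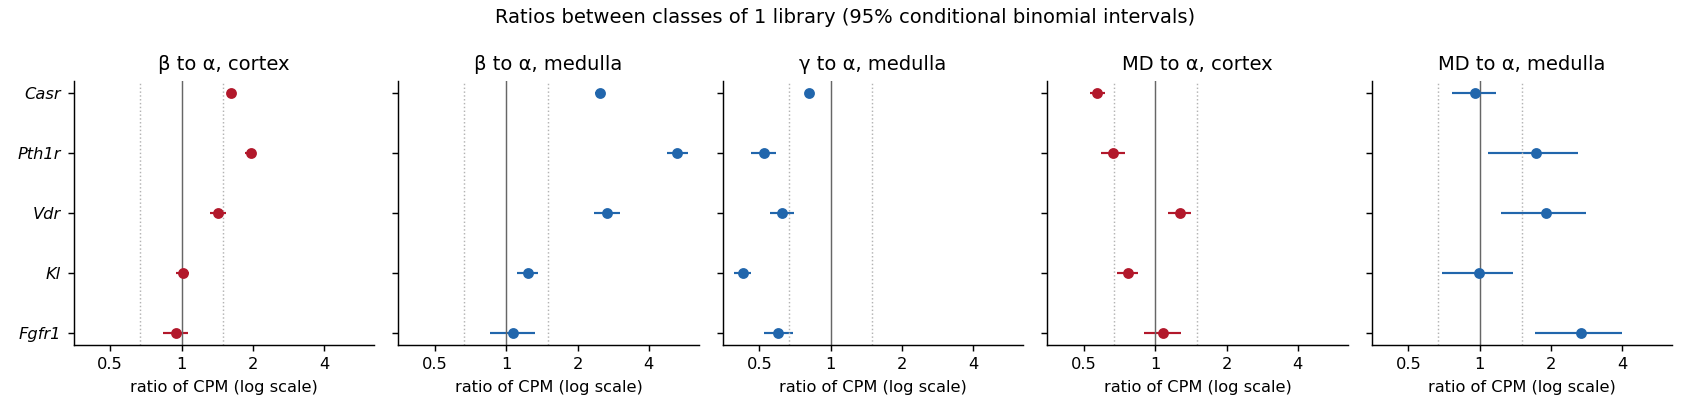
Ratio of CPM between classes (horizontal axis, log scale) for the 5 genes with 95% conditional binomial intervals, cortex in red and medulla in blue; the solid line marks 1 and dotted lines 1.5 times in each direction. Pth1r spans the widest range, from 0.521 for γ to α to 5.27 for β to α in the medulla, while Kl and Fgfr1 lie near 1 for β to α.

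DCT nuclei of the cortex had more Kl, Vdr and Fgfr1 and less Casr and Pth1r than TAL nuclei. Kl was 2.10 times higher in DCT (1.88 to 2.34), Vdr 1.98 times (1.72 to 2.28) and Fgfr1 1.55 times (1.197 to 1.99), while Casr was at 0.347 (0.296 to 0.404) and Pth1r at 0.627 (0.519 to 0.751). This is 3 of 5 higher against 16.5% of 12814 genes, and 2 of 5 lower against 17.8%. In tubule-low nuclei the DCT ratios were 2.58 for Kl, 2.94 for Vdr, 2.10 for Fgfr1, 0.440 for Casr and 0.698 for Pth1r. DCT nuclei reached the sort for an NKCC2-driven tag, and 47 of the 92 held at least 10 Slc12a1 counts.

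Taken as a whole class, α nuclei of the medulla library had lower levels of all 5 genes than those of the cortex library. These are class means, and how nuclei differ by position within the class is not reported here. The ratio was 0.270 for Pth1r (0.249 to 0.293), 0.451 for Vdr (0.413 to 0.493), 0.622 for Kl (0.587 to 0.660), 0.631 for Fgfr1 (0.563 to 0.707) and 0.665 for Casr (0.642 to 0.690). All 5 were at least 1.5 times lower, as were 16.6% of 12576 genes (12.8% among tubule-low nuclei, where all 5 were again lower). Casr lay at the threshold and missed it, leaving 4 of 5, with Tmem52b of at least 1 (0.671), with free RNA subtracted (0.673) and with DCT barcodes kept (0.667). For these settings the share of all genes was not computed. The tubule-low ratios of Pth1r, Vdr, Kl and Fgfr1 in α were 0.274, 0.464, 0.627 and 0.612. With claudin classes the Pth1r ratio was 0.179 (0.157 to 0.203). Within β nuclei none was (16% of all genes), and the Casr ratio was 1.02 (0.976 to 1.07). The β ratios of Pth1r (0.728, 0.670 to 0.790), Fgfr1 (0.712), Kl (0.760) and Vdr (0.847) were nearer to 1 than their α ratios. Tubule-low values were 0.595 for Casr in α and 0.867 (0.825 to 0.911) in β, so without the nuclei that carry proximal tubule transcripts β nuclei also had less Casr in the medulla library. Vdr, Kl and Fgfr1 were at 0.862, 0.778 and 0.691 in tubule-low β nuclei. Pth1r was at 0.658, the 1 gene of 5 at least 1.5 times lower there (9.99% of all genes).

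The threshold on Tmem52b was examined from both sides in tubule-low TAL nuclei other than MD. In cortex, the 2290 nuclei with no Tmem52b count had Casr at 940 CPM (915 to 966) and Pth1r at 257 (244 to 271). The 330 nuclei with 1 count, just outside the β rule, had Casr at 1417 (1337 to 1500) and Pth1r at 535 (487 to 588), and the 256 with 2 counts, just inside, had 1583 (1488 to 1682) and 631 (571 to 695). Kcnj10 was at 148 CPM with 1 count and 175 with 2, against 16.4 with none, so cortical α and γ as ruled hold nuclei with β markers. From 2 counts upward Casr, Pth1r and Vdr differed little in cortex, reaching 1679, 671 and 276 CPM with 5 or more. In medulla the steps were longer. Pth1r was at 48.7, 206, 309, 516 and 450 CPM with 0, 1, 2, 3 to 4, and 5 or more Tmem52b counts, and Vdr at 60.0, 112, 189, 233 and 244. Kl was above 200 CPM only from 3 counts on (302 and 285 CPM), and Fgfr1 stayed between 44.1 and 64.8 CPM with overlapping intervals.

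**Figure D3:**
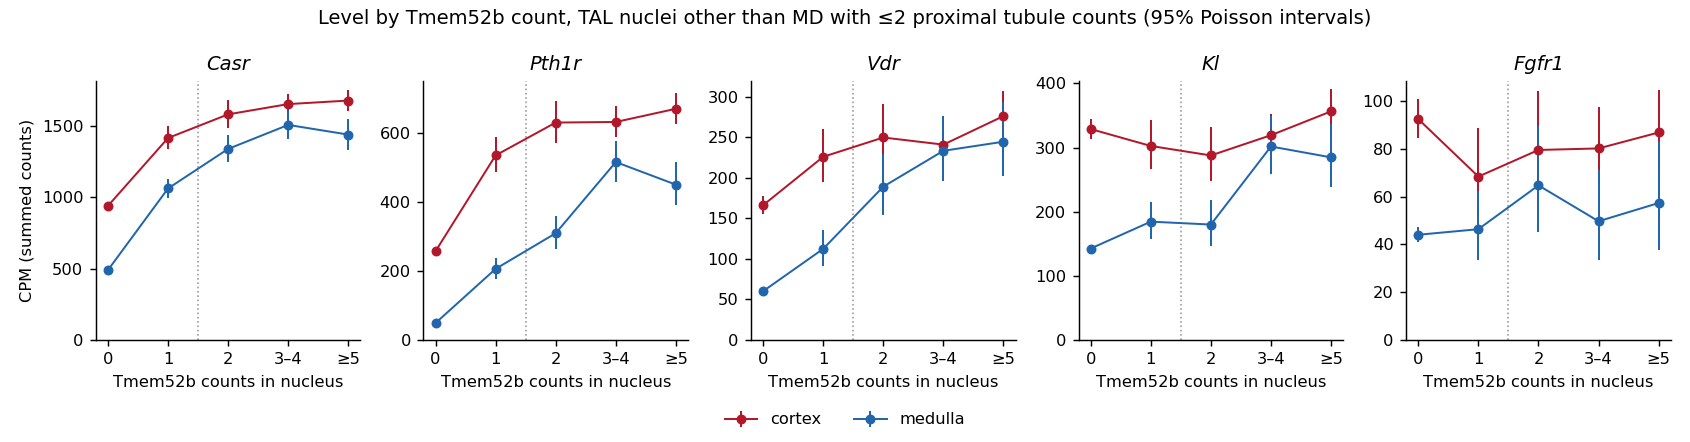
CPM of each gene (vertical axis, from 0) by the number of Tmem52b counts in a nucleus, cortex in red and medulla in blue, with 95% Poisson intervals; the dotted line is the β threshold. Casr and Pth1r are already high in nuclei with 1 count (1417 and 535 CPM in cortex), which the rule leaves outside β.

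How the genes met in single nuclei was described next, in tubule-low nuclei. A nucleus held counts of a mean of 2.77 of the 5 genes in cortical β and 2.49 in medullary β, 2.14 in cortical α, 1.63 in cortical MD, 1.23 in medullary α and 0.865 in medullary γ. None of the 5 was found in 30.0% of medullary α nuclei and 39.03% of medullary γ nuclei, against 0.848% and 2.01% of β nuclei in cortex and medulla. Casr and Pth1r were found together in 71.5% of cortical β nuclei (68.9 to 74.1) and 54.0% of medullary β nuclei (49.7 to 58.3). These shares were within counting error of the product of the separate shares within 5 depth bins, which was 71.1% and 53.9%. Casr alone was found in 94.15% and 92.15% of these β nuclei, which left the joint share little room to differ from the product. The closeness thus cannot show whether Casr and Pth1r meet independently in β nuclei. In medullary α nuclei both were found in 10.9% (9.90 to 11.9) against a product of 7.83%, and in γ nuclei in 4.92% (4.22 to 5.69) against 3.42%. In medullary α nuclei all 10 pairs of the 5 genes lay above their product, 8 of them with an interval that left it out, by 1.15 to 1.51 times. In cortical α nuclei 9 of 10 pairs were above it and none had an interval that left it out. The share over other pairs of genes was not computed, so these counts of pairs are descriptions only. Medullary nuclei with 1 Tmem52b count, which the rule leaves in α or γ, differed from those with none. They had Casr at 1062 against 489 CPM and Pth1r at 206 against 48.7. The part of such mixing within a class in the joint shares was not tested. Of 616 cortical nuclei with Cldn10 and without Cldn16, 77.6% had Casr and 31.0% had Casr with Pth1r (27.4 to 34.8, product 29.7%).

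Other genes of these pathways came from lists set by name, with earlier results of these data known. The study names Cldn16, Cldn19 and Cnnm2 of the transport list, and Cldn14 of the calcium receptor list, as higher in its β cells. The counts for these lists were thus partly known beforehand. Of 18 genes of calcium receptor signalling, 16 had at least 50 counts, of which 0 were 1.5 times higher and 2 lower in cortical β than α nuclei, and 1 higher and 3 lower in medullary ones, with median ratios of 0.931 and 0.974. Of 12 gene names listed for parathyroid hormone signalling 11 were in the count matrices and 6 could be compared. Of these, 0 passed 1.5 times in either direction and library. None of 10 vitamin D genes in cortex or 9 in medulla passed, the partner genes Rxra and Rxrb included (1.19 and 1.40 times in cortex, 1.14 and 0.833 in medulla). Of the FGF23 and Klotho list, 3 of 16 genes were higher in cortex and 4 of 15 in medulla, and 0 were lower. Of 11 genes of calcium and magnesium transport, 6 of 9 were higher in cortical β and 4 of 7 in medullary β, with median ratios of 1.75 and 1.65. The medians over all genes were 1.01 and 0.986, and the shares of all genes past 1.5 were 5.1% higher and 4.33% lower in cortex and 6.82% and 8.1% in medulla. Among tubule-low nuclei the shares of all genes were 6.07% higher and 5.79% lower in cortex, and 6.48% and 8.66% in medulla. There the calcium receptor list had 2 higher and 3 lower of 16 in cortex and 1 and 3 in medulla. The vitamin D list had 1 lower of 9 in cortex, Cubn (0.651, 0.318 to 1.25). Cubn and Lrp2 of this list are among the 7 proximal tubule markers whose counts define tubule-low nuclei. The filter itself shapes their values there, so the Cubn call says nothing of the classes. The FGF23 and Klotho list had 3 higher and 1 lower of 14 in cortex, Fgfr2 (0.652, 0.595 to 0.714), and 5 higher of 14 in medulla. The parathyroid hormone list again had 0, and the transport list 6 of 9 and 4 of 7 higher. Among all nuclei, 7 of 10 genes of the transport list were higher in cortical DCT than in TAL nuclei and 2 lower. The shares of all genes there were 16.5% and 17.8%.

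Genes of these lists past 1.5 times in the same direction in both libraries, among all nuclei and among tubule-low ones, were Cldn16, Cnnm2, Slc8a1, S100g, Dusp6, Spry2, Spred2 and Arrb1. Cldn19 and Cldn14, which the study also names for its β cells, were not among them. Cldn16, which forms the paracellular path for calcium and magnesium and is itself a β marker, was 1.93 and 4.21 times higher in β in cortex and medulla. Cnnm2, which acts in magnesium transport, was 1.81 and 2.64 times higher, and the sodium-calcium exchanger gene Slc8a1 2.64 and 2.28 times. S100g, which encodes a calcium-binding protein, was 1.63 (1.32 to 2.02) and 1.65 times higher, the latter with an interval from 0.898 to 2.88. Dusp6, Spry2 and Spred2 encode feedback inhibitors of the kinase pathway below growth factor receptors. Dusp6 was 2.66 and 1.71 times higher, Spry2 1.99 and 1.60 times, and Spred2 1.53 and 1.57 times. Arrb1, which encodes a β-arrestin, was at 0.649 and 0.620 times its α level. Among tubule-low nuclei alone this also held for Rgs2, a regulator of G protein signalling (1.57 and 3.76 times higher), and for Plcb3, a phospholipase C. Plcb3 was at 0.653 (0.419 to 0.994) and 0.515 (0.24 to 0.983), with a level of only 6.21 CPM in medullary β.

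The genes with a pattern most like each member were sought over the 8 groups of 4 TAL classes in 2 libraries, by Pearson's r of log2(CPM + 10), among 10953 genes with at least 200 counts. The 8 groups share 2 libraries and are not independent. For Casr these were Cldn16 (r = 0.982), 9530036O11Rik, Asap2, Tspan18 and Gm15241, and for Pth1r they were Plxna2 (0.980), Epb41l3, Gsta3, Add1 and Myl3 (0.971), the gene that overlaps it. For Vdr they included Nedd9 (0.981), Grb7, Clcn3 and Hnf1aos1. Kl had Grcc10 (0.989), Cadm2, Osbpl6, F11r and Shd, and Fgfr1 had Zfp40 (0.992), A430033K04Rik, Zfp704, Zfyve27 and Clstn1. With tubule-low nuclei 3 of the 5 genes were shared for Casr, Kl and Fgfr1, 2 for Vdr and 1 for Pth1r. Among the 5 genes themselves, Pth1r and Vdr were most alike (r = 0.924), followed by Vdr with Kl and Casr with Pth1r (both 0.880). Among tubule-low nuclei the order was Casr with Pth1r (0.910), Pth1r with Vdr (0.902), Pth1r with Kl (0.859) and Vdr with Kl (0.842). For Casr and Fgfr1 r was 0.00255 and 0.00234.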

How the data were processed

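Nuclei were sorted for Sun1-sfGFP from dissected cortex and medulla of NKCC2-Cre-INTACT mice, with 1 library per region. The authors captured transcripts with PIPseq, aligned to GRCm39 and counted with PIPseeker. The submitters' processing notes also name bcl2fastq and Seurat 4.4.0. The deposited values are raw counts per gene and barcode, before removal of doublets, correction for free RNA or normalization. The deposited cluster numbers (no unit) were used in 1 alternative, and low-count barcodes of the raw matrices as free RNA. Clusters carry no class names and were named by marker level relative to all TAL nuclei of the library. The name was MD at 5 times or more for Nos1 and Pappa2, else β at 2 times or more for Tmem52b. The rest were γ at 1.5 times or more for Tmem207 and Gpc5, and otherwise α.

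CPM were computed from sums per class and library (Python 3.11.15; scipy 1.17.1, numpy 2.4.6, pandas 2.3.3, scanpy 1.11.5). The 95% intervals were Clopper-Pearson for shares, conditional binomial for ratios, and Poisson (exact) for levels. No class took 97 cortical and 43 medullary barcodes. A gene entered the background with 50 counts in the classes compared and was called at 1.5-fold. Named genes are the 5 members, class markers, genes of the fixed lists past 1.5-fold one way in both libraries, and the 5 nearest patterns per member. The members and lists were chosen with earlier results of these data known. Alternatives were 10 planned settings, thinning to 1000 counts, and 2 added after seeing the data, which keep nuclei with at most 2 counts over Slc34a1, Lrp2, Cubn, Slc5a12, Slc13a3, Slc22a8 and Slc5a2. Doublets were called with Scrublet (automatically in cortex, 359 barcodes, and as the top 5% in medulla, 489, where the automatic threshold called 3). Ratios and intervals were tested on data simulated with counting error only, so differences among nuclei of a class were not covered. Coordinates and promoters came from GENCODE M39 on GRCm39. Protein sequences were not used here. A planned ordering of nuclei along a gene score and 1 gene of similar pattern are not reported here.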

Additional observations from a re-analysis of the deposited data

Results flagged for a closer look

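The Fgfr1 ratio of β to α nuclei lay on opposite sides of 1 in the libraries, at 0.945 in cortex and 1.07 in medulla. Both intervals held 1, and the difference between libraries was not tested. The Pth1r ratio of MD to α nuclei was 0.665 in cortex and 1.72 in medulla, where 23 Pth1r counts came from 78 MD nuclei. This difference was not tested either. The medullary α level of Pth1r (80.5 CPM) was below the cortical one (298 CPM), and the MD levels were 139 and 198 CPM.

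Counts of all 5 genes appeared in barcodes of the raw matrices that were not called as nuclei and held 5 to 100 counts, 172828 in cortex and 162499 in medulla, which belong to no class of nuclei. In cortex they held Casr at 799 CPM, Pth1r at 650, Vdr at 246, Kl at 282 and Fgfr1 at 88.0. In medulla they held Casr at 476 CPM, Pth1r at 186, Vdr at 104, Kl at 146 and Fgfr1 at 46.8. The cortical Pth1r value was above the level in cortical β nuclei (583 CPM), and the proximal tubule gene Slc34a1 stood at 1851 CPM in these cortical barcodes and at 344 CPM in the medullary ones. All 5 medullary values were above the levels in γ nuclei, those of Casr and Fgfr1 with overlapping intervals. Those of Pth1r and Vdr were also above the medullary α levels (80.5 and 82.5 CPM). The part of free RNA in the γ and α counts was not tested.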

How the results depend on the processing

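No paired analysis was possible because each region has 1 library, so leaving out a replicate was not possible either. The 20 ratios of β to α (both libraries), γ to α (medulla) and MD to α (cortex) were recomputed under 12 alternatives. None moved under the filter of 500 genes and 5% mitochondrial counts, under median-of-ratios scaling, or with DCT barcodes kept. Outside these 20, scaling put the medullary MD to α ratio of Pth1r at 1.44, below 1.5 but within the counting interval of the reported value. Of the others, the following left the counting interval of the reported value.

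With deposited clusters the β to α ratios were 2.25, 2.21, 1.31 and 0.921 for Casr, Pth1r, Vdr and Kl in cortex, and 3.08, 6.46 and 1.47 for Casr, Pth1r and Kl in medulla. The γ to α ratios were 0.889, 0.218, 0.510 and 0.290 for Casr, Pth1r, Vdr and Kl, and the MD to α ratios 0.497 for Pth1r and 0.613 for Kl. With claudin and Kcnj10 classes β to α was 1.94, 1.84, 1.27 and 0.856 for the same 4 genes in cortex, and 2.61 for Casr and 1.53 for Kl in medulla. γ to α was 0.954, 0.617, 0.972, 0.665 and 0.761 for Casr, Pth1r, Vdr, Kl and Fgfr1, and MD to α 0.678 for Casr. Among these classes in nuclei with at most 2 proximal tubule counts, γ to α of Casr reversed to 1.02, and was 0.429, 0.836 and 0.698 for Pth1r, Vdr and Kl. β to α was 2.44 for Pth1r and 1.57 for Vdr in cortex, and 6.502 for Pth1r and 1.75 for Kl in medulla. MD to α was 0.774 for Pth1r and 1.63 for Vdr.

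With rule classes and at most 2 proximal tubule counts, β to α in cortex was 1.71 for Casr and 2.33 for Pth1r, γ to α of Kl 0.388, and MD to α 0.528 for Casr and 0.676 for Kl. With 1500 to 4000 counts only, β to α was 1.77 for Casr and 2.40 for Pth1r in cortex and 6.01 for Pth1r in medulla, γ to α of Kl 0.378, and MD to α 0.468 for Casr and 0.626 for Kl. With free RNA subtracted at 10%, β to α was 1.68 and 2.22 for Casr and Pth1r in cortex and 2.62 and 6.55 in medulla, γ to α 0.378 for Pth1r and 0.382 for Kl, and MD to α 0.525 for Casr and 0.571 for Pth1r. With the mean of single-nucleus CPM, β to α was 1.72 and 2.24 for Casr and Pth1r in cortex and 2.63 and 5.94 in medulla, and MD to α of Casr 0.490. With Tmem52b of at least 1, medullary β to α was 2.29, 4.60 and 2.21 for Casr, Pth1r and Vdr, and γ to α 0.754 and 0.3999 for Casr and Pth1r. Without doublets, β to α of Pth1r was 2.07 in cortex and MD to α of Casr 0.475.

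β to α of Casr, Pth1r and Vdr stayed above 1 under all 12 alternatives in both libraries. Cortical Kl ranged from 0.856 to 1.04, so its direction depends on the setting. The cause of these shifts was not tested. With 78 MD and 15 DCT nuclei in medulla, depth limits what can be said of those classes.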

Other observations

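MD nuclei of the 2 libraries were compared in no part of the report. Among nuclei with at most 2 proximal tubule counts, the medulla to cortex ratio in MD nuclei was 1.08 for Casr (0.856 to 1.35), 0.820 for Pth1r (0.509 to 1.26), 0.682 for Vdr (0.439 to 1.02), 0.952 for Kl (0.646 to 1.36) and 1.55 for Fgfr1 (0.969 to 2.40). Every interval held 1, with 77 medullary MD nuclei and 602 cortical ones.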
